A study of Mus musculus with 12 samples.

Results

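The HSP90 genes and their cochaperones were followed in spermatogonia of control and cryptorchid mouse testes. The 10 members, taken by gene symbol from the 21859 genes of the expression table, were *Hsp90aa1*, *Hsp90ab1*, *Hsp90b1*, *Trap1*, *Ahsa1*, *Stip1*, *Cdc37*, *Fkbp4*, *Ptges3* and *Chordc1*. All 10 passed the filter on low values that left 16932 genes for testing. RNA was measured in 12 libraries, 5 from control and 7 from cryptorchid testes. In the cryptorchid group the left testis of a GFRa1-EGFP mouse had been fixed to the abdominal wall, and in the control group the right testis of operated mice stayed in the scrotum. Mice were 8 to 10 weeks old, and testes were taken 10 days after surgery. GEO's labels give the genotype as WT for control and as Cryptorchid for the operated testes, and both groups carried the EGFP reporter, which marks cells that express the GDNF receptor gene *Gfra1*. GFRa1+/KIT- cells are undifferentiated spermatogonia, the population that holds the stem cells. Tubules were digested for 9 min at 32°C for control and at 37°C for cryptorchid testes, so the digestion temperature cannot be told apart from the condition. Libraries came from RNA of about 200 cells by the Smart-seq2 method, in which whole cDNA molecules are amplified by PCR. No source used here says which libraries come from 1 mouse, so *P*-values measure the spread between these libraries. Values are log2 RPM, reads scaled to the library total.

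HSP90 is an ATP-driven chaperone dimer that takes over partly folded proteins from HSP70 and brings them to an active form. *Hsp90aa1* encodes the stress-inducible cytosolic form, *Hsp90ab1* the constitutive cytosolic form, *Hsp90b1* the form of the endoplasmic reticulum (GRP94) and *Trap1* the mitochondrial form. Cochaperones set the steps of the cycle. STIP1 (HOP) passes clients from HSP70, CDC37 brings in protein kinases, AHSA1 speeds ATP hydrolysis, PTGES3 (p23) holds the closed state, FKBP4 is an immunophilin of steroid receptor complexes, and CHORDC1 (morgana) is a CHORD domain protein that binds HSP90. Many of these genes are targets of HSF1, the factor that binds heat shock elements, which are inverted repeats of the unit GAA with 2 bases between units. Genes of the endoplasmic reticulum chaperones carry the ER stress element, in which CCAAT and CCACG are 9 bases apart. The testis lies in the scrotum at a lower temperature than the abdomen, and germ cells are sensitive to heat.

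Promoter windows of 250 bases before to 50 after the transcription start, from RefSeq on GRCm38.p6, were found for 8 members. The table used had no window for *Hsp90aa1* and *Hsp90ab1*. Shown first is a stretch of *Chordc1*, the member with the largest difference between groups. Beside it is a stretch of *Hsph1*, the called gene of the HSF1 target list. Both held 3 or more adjoining units. So did *Hspd1* and *Hspe1*, which are not shown and were not called (log2 differences of 0.28 and 0.42, cryptorchid minus control). The units are in capitals.
Chordc1: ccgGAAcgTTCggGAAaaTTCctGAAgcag
Hsph1: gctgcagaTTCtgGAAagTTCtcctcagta
The *Chordc1* stretch is chr9:18292260-18292289 on the plus strand, from -7 to 23 around the start, and carries 5 units in a row, which give 3 overlapping matches to the 3-unit element. The GENCODE gene of *Chordc1* begins upstream of this RefSeq start, at 18292125. The *Hsph1* stretch is chr5:149636279-149636308 on the minus strand, from 8 to 37. In another RefSeq window of *Hsph1* the element is at 37 to 49 in place of 16 to 28. Either strand of the 3-unit element GAANNTTCNNGAA was found in 0.603% of the 32851 mouse promoter windows, in 1 of the 8 members and in 3 of the 11 HSF1 target chaperones with a window (*Hspd1*, *Hspe1* and *Hsph1*). The windows of *Hspd1* and *Hspe1* overlap. Their matches are the same bases read on opposite strands, so these genes share 1 site.

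Pairs of units, GAANNTTC or TTCNNGAA, were found in 7.86% and 8.52% of all windows. Apart from *Chordc1*, *Fkbp4* and *Cdc37* each held 1 such pair, and they are shown as the other members with a match.
Fkbp4: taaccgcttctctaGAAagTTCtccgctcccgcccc
Cdc37: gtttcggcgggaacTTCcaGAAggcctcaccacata
These are chr6:128438786-128438821 (minus strand, -165 to -130) and chr9:21150083-21150118 (minus strand, -184 to -149). *Hsp90b1* held the ER stress element, with its CCAAT and CCACG parts in capitals (CGTGG and ATTGG where the element reads on the other strand), at -212 to -194 and again at -107 to -89.
Hsp90b1: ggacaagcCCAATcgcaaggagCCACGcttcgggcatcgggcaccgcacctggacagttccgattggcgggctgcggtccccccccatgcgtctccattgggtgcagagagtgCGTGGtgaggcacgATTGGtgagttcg
The stretch is chr10:86705525-86705664 on the minus strand. The element was in 0.119% of all windows, in *Hsp90b1* alone among the 8 members and in 4 ER partner genes (*Calr*, *Canx*, *Hspa5* and *Pdia6*). CCAAT itself, which the element contains, was in 37.4% of all windows. A match describes these letters, and binding of a factor was not measured.

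**Figure D1:**
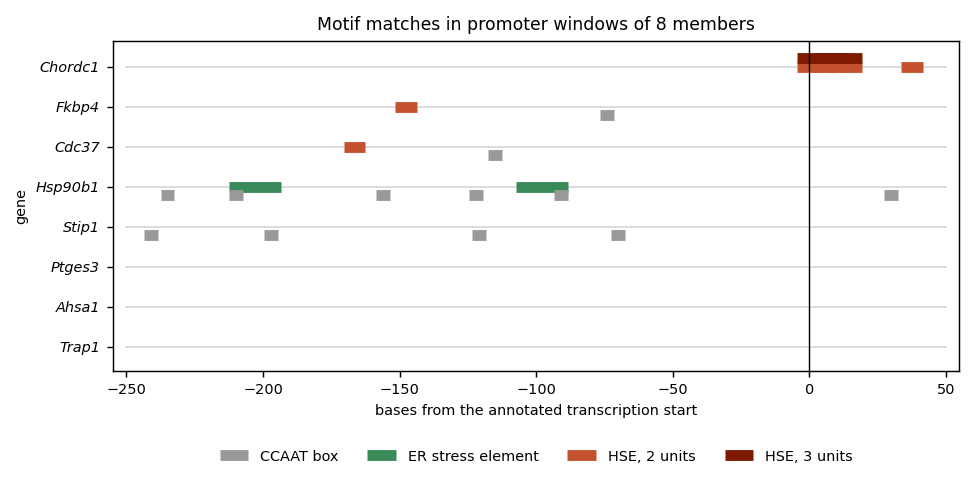
Matches to the heat shock element (HSE; 2 or 3 adjoining units), the ER stress element and the CCAAT box in the promoter windows of 8 members, drawn by distance in bases from the annotated transcription start. *Chordc1* holds the 3-unit element at the RefSeq start, *Hsp90b1* the ER stress element at 2 places, and no match is drawn for *Ptges3*, *Ahsa1* and *Trap1*.

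The libraries held 3306771 to 24345368 reads on genes, and members were covered by 112 (*Chordc1*) to 61886 (*Hsp90aa1*) reads. Replicates 1 to 3 of both groups were taken as 1 set (batch 1, 3 control and 3 cryptorchid libraries). Replicates 4 and above were taken as another (batch 2, 2 control and 4 cryptorchid libraries). No label names these sets, and what they stand for is not known. Among genes with 1 to 20 reads, the share with an even number of reads differed between these sets (53.2% to 60.8% against 48.2% to 50.5%). The libraries numbered 3 stood apart for these genes. Of the 10 members, 7 were lowest in control replicate 3 and 8 in cryptorchid replicate 3, with median deviations from the group means of -1.11 and -1.01 log2 RPM, against -0.35 and -0.33 over all genes tested. In these 2 libraries 74.5% and 80.9% of the implied total lay on genes. Results are therefore given with and without both, a choice made after the values were seen. Of the markers of undifferentiated spermatogonia (14 genes, *Gfra1* and *Zbtb16* among them), none was called, and their summed level was 1336 to 2029 RPM in control and 1550 to 2361 RPM in cryptorchid libraries. Spermatid markers moved with the condition, with 5 of 10 genes called lower (*Prm1*, *Prm2*, *Tssk6*, *Hspa1l* and *Odf1*), 10 of 10 means lower and a summed level of 521 to 2829 RPM in control against 19.1 to 1881 RPM in cryptorchid libraries. The part of RNA from such cells in the values below was not tested, and fewer cells of a type and less RNA per cell cannot be told apart in these libraries. Of 4 endothelial genes 2 were called higher (*Kdr* and *Cdh5*; sum 19.9 to 33.3 against 24.4 to 74.3 RPM), and of 8 immediate early genes none was called (sum 79.1 to 558 against 86.5 to 1096 RPM). No gene of the spermatocyte, Sertoli, Leydig, peritubular myoid or macrophage lists was called, and *Stra8* was called higher among 7 genes of differentiating spermatogonia. By the same rule, given below, 3.56% of all genes tested were called higher and 2.36% lower.

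One member, *Chordc1*, was called higher in cryptorchid spermatogonia, and none was called lower. A call needed a 2-fold difference and an unadjusted two-sided *P*-value under 0.05 in limma, which 3.56% of all genes tested met in the higher and 2.36% in the lower direction. The mean was higher in cryptorchid libraries for 8 of the 10 members, against 56.7% of all genes, and the median log2 difference of the members was 0.30 against 0.10 over all genes. An unadjusted *P*-value under 0.05, whatever the fold, was found for 1 member in the higher direction (5.67% of all genes) and for 0 members in the lower direction (3.82% of all genes). No member had a Benjamini-Hochberg adjusted *P*-value under 0.05 in this unpaired limma fit, which 2 genes, 0.0118% of those tested, had in either direction. Without the libraries numbered 3 the count of called members was again 1, *Chordc1*, and the median log2 difference was 0.18, against 0.07 over all genes. The median moved with single libraries, to 0.045 without control replicate 3 and 0.50 without cryptorchid replicate 3. Together the members summed to 2375 to 6413 RPM (median 5039) in control and 3069 to 8207 RPM (median 7295) in cryptorchid libraries, which overlap.

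**Figure D2:**
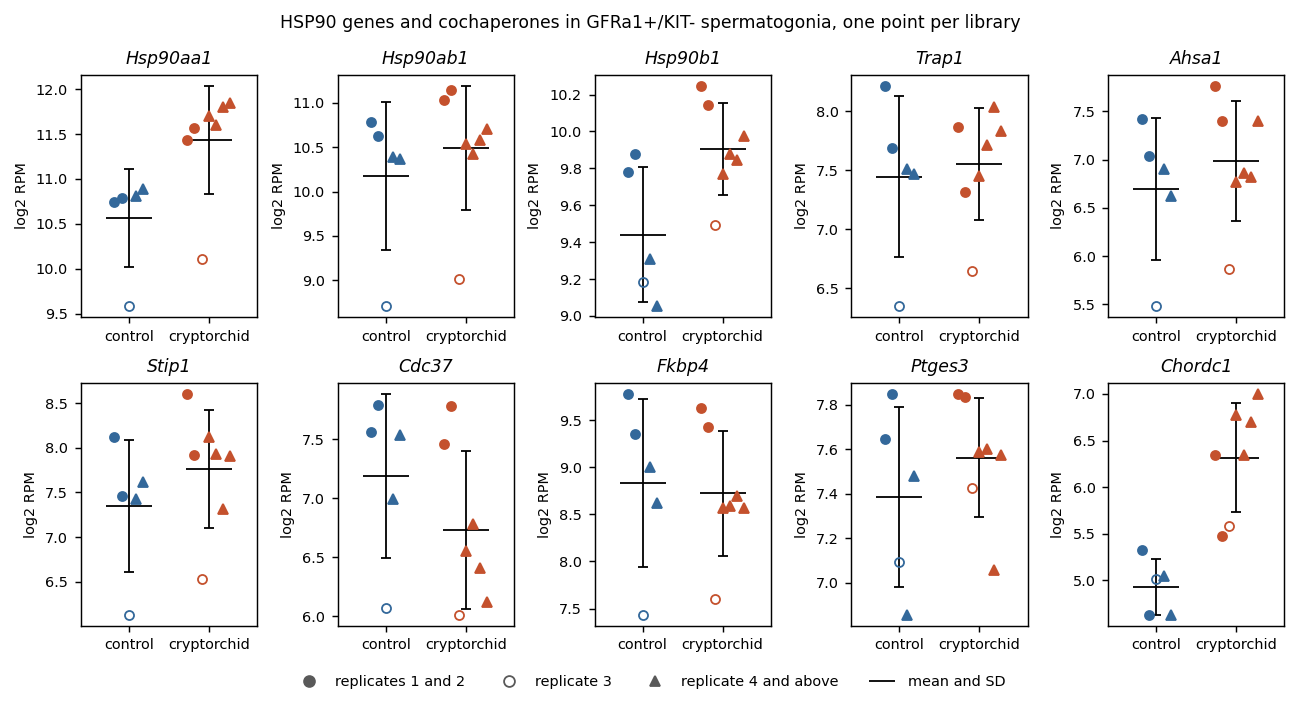
Log2 RPM of each member in every library, 5 control (blue) and 7 cryptorchid (red), with the mean and SD in black; open circles are the libraries numbered 3, filled circles replicates 1 and 2, and triangles replicates 4 and above. The groups are separate for *Chordc1*, from 4.63 to 5.33 in control and from 5.48 to 7.0 in cryptorchid libraries, and overlap for the other 9 members.

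Levels of different genes were compared per kilobase of annotated exon (GENCODE vM21, GRCm38), as mean log2 RPM per kb. In control spermatogonia the cytosolic forms led, with 8.59 ± 0.836 for *Hsp90ab1* and 8.59 ± 0.549 for *Hsp90aa1* (SD, n=5). *Hsp90b1* (7.43 ± 0.367) and *Fkbp4* (7.35 ± 0.892) followed, then *Stip1* (6.27), *Ptges3* (6.24) and *Trap1* (6.08), and below them *Ahsa1* (4.57), *Cdc37* (4.15) and *Chordc1* (2.02). Neighbours in this order were separate in all 5 control libraries at 4 steps, *Hsp90aa1* over *Hsp90b1*, *Fkbp4* over *Stip1*, *Trap1* over *Ahsa1* and *Cdc37* over *Chordc1*. At the other steps the order changed between libraries, and apart from *Ahsa1* over *Cdc37* (0.41 ± 0.365, SD, n=5) the mean step was smaller than its SD. In cryptorchid spermatogonia *Hsp90aa1* stood above *Hsp90ab1* in all 7 libraries, with *Hsp90aa1* at 9.46 ± 0.603 and *Hsp90ab1* at 8.91 ± 0.703 (SD, n=7). *Chordc1* (3.41 ± 0.585) came near *Cdc37* (3.70 ± 0.666), and only 4 of 7 libraries kept *Cdc37* above it. These levels rest on the annotated length. A long annotation lowers the level per kilobase, and *Cdc37* has the longest exons of the 10 (8194 bases, with 7498 for *Chordc1*). Before division by length, the control mean of *Cdc37* (7.19) was above those of *Ahsa1* (6.70) and *Chordc1* (4.93). The undivided cryptorchid means were 6.98 for *Ahsa1*, 6.73 for *Cdc37* and 6.32 for *Chordc1*. With the length of the principal coding transcript, *Ahsa1* stood at 6.23 in control in place of 4.57. With that length *Chordc1* (3.78) stood above *Cdc37* (3.76) in cryptorchid libraries. *Cdc37* was 9th of 10 in control with each length used, all of them long (7851 bases for its principal transcript). Its order with *Chordc1* in cryptorchid libraries, and the level of *Ahsa1*, depended on the length used.

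*Hsp90aa1* (chromosome 12, 110690605 to 110702728, minus strand) was the HSP90 gene with the largest difference. Its log2 RPM was 10.75, 10.79, 9.59, 10.81 and 10.89 in control replicates 1 to 5, and ran from 10.11 over a median of 11.60 to 11.84 in the cryptorchid libraries. Control replicate 3 was far below the other controls, cryptorchid replicate 3 was below 4 of the 5 controls, and the other 6 cryptorchid libraries lay above every control library. The log2 difference was 0.87 (standard error 0.430), which is 1.83-fold with a 95% interval of 0.979 to 3.43, and the call rule was not met (limma, *P*=0.0574, adjusted *P*=0.540; exact two-sided rank sum test, *P*=0.0303). Within batches the difference was 0.66 and 0.89. Without the libraries numbered 3 it was 0.85 (standard error 0.197, adjusted *P*=0.121 in limma), still under 2-fold, and leaving out cryptorchid replicate 3 alone brought it to 1.10 and past the rule (adjusted *P*=0.301 in limma). Of all 150-base stretches in its transcripts, 28.4% also occur in another annotated transcript, mostly of the pseudogene *Gm12346*, and how reads with several matches were handled is not stated, so the level of *Hsp90aa1* is uncertain to that extent.

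*Hsp90ab1* (chromosome 17, 45567775 to 45573271, minus strand), the constitutive form, shared no 150-base stretch with *Hsp90aa1*. It had 10.78, 10.62, 8.71, 10.39 and 10.37 log2 RPM in control replicates 1 to 5 and 9.02, 10.58 and 11.15 as the lowest, median and highest cryptorchid values. The groups overlapped, and each group had its low value in the library numbered 3. The log2 difference was 0.32 (standard error 0.445, 95% interval -0.62 to 1.25; limma, *P*=0.487, adjusted *P*=0.861; exact rank sum *P*=0.343). It was -0.05 without control replicate 3, 0.56 without cryptorchid replicate 3 and 0.20 without both.

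The balance of the cytosolic forms was read within each library, where scaling has no part. The log2 of *Hsp90aa1* over *Hsp90ab1* was -0.03, 0.16, 0.87, 0.42 and 0.51 in control replicates 1 to 5. In cryptorchid replicates 1 to 7 it was 0.40, 0.42, 1.09, 1.17, 1.17, 1.22 and 1.14. The 5 cryptorchid libraries from replicate 3 on lay above every control library, whereas replicates 1 and 2 lay among the controls. Control replicates 1 and 2 were also the lowest controls. Each of cryptorchid replicates 1 to 5 lay above the control of its own number, though no source says that numbers mark pairs. The control mean was 0.39 ± 0.348 (SD, n=5) and the cryptorchid mean 0.94 ± 0.366 (SD, n=7), a difference of 0.56 or 1.47-fold. It was 0.30 in batch 1, 0.71 in batch 2 and 0.65 without the libraries numbered 3. The ratio is given as a description, without a test. As a share of the 4 HSP90 genes per kilobase, *Hsp90aa1* had a median of 38.2% (32.2% to 42.8%) in control and 50.5% (39.3% to 52.2%) in cryptorchid libraries, and *Hsp90ab1* one of 39.5% (27.3% to 43.2%) and 30.4% (25.8% to 40.5%).

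**Figure D3:**
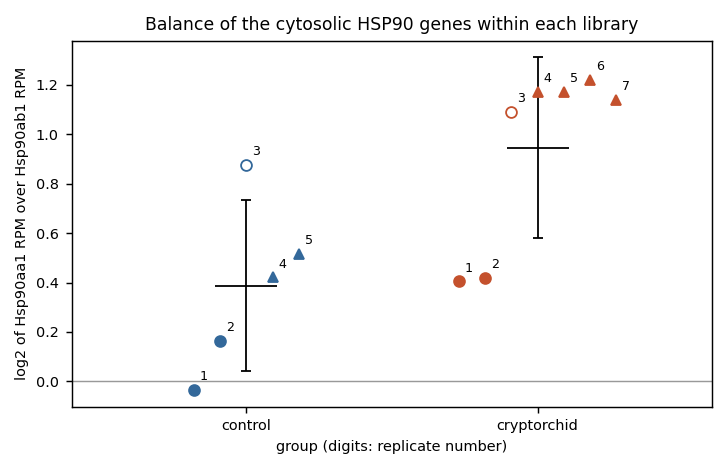
Log2 of *Hsp90aa1* RPM over *Hsp90ab1* RPM within each library, labelled by replicate number, for 5 control (blue) and 7 cryptorchid (red) libraries, with the mean and SD in black. Replicates 3 to 7 of the cryptorchid group sit between 1.09 and 1.22, above the highest control value of 0.87, and replicates 1 and 2 at 0.40 and 0.42.

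*Hsp90b1* (chromosome 10, 86690209 to 86705509, minus strand), which folds receptors and integrins in the endoplasmic reticulum, had 9.78, 9.88, 9.18, 9.31 and 9.05 log2 RPM in control replicates 1 to 5. The cryptorchid values were 9.49, 9.88 and 10.25 (lowest, median and highest), and 4 of the 7 were above every control library. The log2 difference was 0.47 (standard error 0.291), or 1.38-fold with a 95% interval of 0.903 to 2.11, and was not called (limma, *P*=0.127, adjusted *P*=0.641; exact rank sum *P*=0.0480). Without the libraries numbered 3 it was again 0.47 (standard error 0.211, adjusted *P*=0.352 in limma). Batch 1 gave 0.35 and batch 2 gave 0.69. Relative to *Hsp90ab1* the log2 ratio had a control mean of -0.74 ± 0.705 (SD, n=5) and a cryptorchid mean of -0.58 ± 0.486 (SD, n=7). Exons of *1810014B01Rik* overlap on the opposite strand, and the counting strand is not stated.

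*Trap1* (chromosome 16, 4039971 to 4077827, minus strand), the mitochondrial form, had 8.22, 7.69, 6.35, 7.51 and 7.46 log2 RPM in control replicates 1 to 5 and 6.64, 7.71 and 8.04 (lowest, median and highest) in cryptorchid libraries. No cryptorchid library lay above the highest control. The log2 difference of 0.11 (95% interval -0.56 to 0.77; limma, *P*=0.744, adjusted *P*=0.938; exact rank sum *P*=0.876) was smaller than the spread in either group, and it was -0.14 in batch 1 and 0.27 in batch 2. Without the libraries numbered 3 it was -0.02, with -0.17 without control replicate 3 alone.

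*Chordc1* (chromosome 9, 18292125 to 18317442, plus strand) was the cochaperone that separated the groups. Its log2 RPM was 5.33, 4.63, 5.01, 5.05 and 4.63 in control replicates 1 to 5 and 5.48, 6.35 and 7.0 (lowest, median and highest) in cryptorchid libraries. The lowest cryptorchid library lay above the highest control, which held for 0.555% of all genes tested, and the libraries numbered 3 were not low for this gene among controls. The control mean was 4.93 ± 0.298 (SD, n=5) and the cryptorchid mean 6.32 ± 0.585 (SD, n=7). It rose 2.61-fold (95% interval 1.69 to 4.05), by a log2 difference of 1.39 with a standard error of 0.30 (limma, *P*=0.000223, adjusted *P*=0.129; exact two-sided rank sum test, *P*=0.00253, the smallest it can give). Batch 1 gave 0.81 and batch 2 gave 1.86, and batch 1 alone fell short of the rule. Without the libraries numbered 3 the difference was 1.53 (adjusted *P*=0.104 in limma). The smallest gap between the groups was between control replicate 1 (5.33) and cryptorchid replicate 2 (5.48). The log2 ratio of *Chordc1* to *Hsp90ab1* was -5.25 ± 0.902 (SD, n=5) for controls against -4.18 ± 0.768 (SD, n=7), and that to *Hsp90aa1* was -5.63 ± 0.679 (SD, n=5) against -5.12 ± 0.487 (SD, n=7). These differences of 1.07 and 0.51 are descriptions.

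*Stip1* (chromosome 19, 7020702 to 7039967, minus strand), the adaptor between HSP70 and HSP90, had 8.12, 7.45, 6.13, 7.42 and 7.62 log2 RPM in control replicates 1 to 5. Its lowest, median and highest cryptorchid values were 6.53, 7.92 and 8.60, with 2 libraries above the highest control. The log2 difference was 0.41 (standard error 0.363; limma, *P*=0.272, adjusted *P*=0.754; exact rank sum *P*=0.343) and lay within the spread, with 0.45 in batch 1 and 0.30 in batch 2. It was 0.11 without control replicate 3, 0.62 without cryptorchid replicate 3 and 0.31 without both.

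*Ahsa1* (chromosome 12, 87266479 to 87273998, plus strand), the ATPase activator, had 7.42, 7.04, 5.48, 6.90 and 6.63 log2 RPM in control replicates 1 to 5, and 5.87, 6.86 and 7.77 as the lowest, median and highest cryptorchid values. Its log2 difference was 0.29 (95% interval -0.46 to 1.03; limma, *P*=0.426, adjusted *P*=0.836; exact rank sum *P*=0.755). It was -0.02 without control replicate 3, 0.47 without cryptorchid replicate 3 and 0.17 without both. *Ptges3* (chromosome 10, 128058954 to 128077272, plus strand), which encodes p23, had 7.65, 7.85, 7.09, 6.86 and 7.48 in control and 7.06, 7.59 and 7.85 in cryptorchid libraries. The range of the cryptorchid libraries fell inside that of the controls, and the log2 difference was 0.18 (95% interval -0.34 to 0.69; limma, *P*=0.477, adjusted *P*=0.856; exact rank sum *P*=0.755), or 0.13 without the libraries numbered 3. Of its 150-base stretches 14.9% also occur in the pseudogene *Ptges3-ps*, so its level is uncertain to that extent.

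*Cdc37* (chromosome 9, 21133222 to 21149982, minus strand), the kinase adaptor, had the lowest log2 difference of the 10. Its log2 RPM was 7.56, 7.79, 6.07, 6.99 and 7.53 in control replicates 1 to 5, and 6.01, 6.55 and 7.78 (lowest, median and highest) in cryptorchid libraries. The log2 difference was -0.46 (standard error 0.356, 95% interval -1.21 to 0.29; limma, *P*=0.215, adjusted *P*=0.719; exact rank sum *P*=0.268). The batches differed in size, with -0.05 in batch 1 and -0.80 in batch 2 (adjusted *P*=0.143 in limma on batch 2 alone). That difference was under 2-fold, and the difference between batches was not tested. With single libraries left out it ran from -0.74 (without control replicate 3) to -0.31 (without control replicate 2), and it was -0.62 without the libraries numbered 3. *Fkbp4* (chromosome 6, 128429735 to 128438677, minus strand), the steroid receptor immunophilin, had 9.78, 9.35, 7.44, 9.0 and 8.62 in control and 7.60, 8.59 and 9.63 in cryptorchid libraries. Its log2 difference of -0.11 (95% interval -0.96 to 0.73; limma, *P*=0.782, adjusted *P*=0.949; exact rank sum *P*=0.639) changed sign between batches, from 0.03 to -0.21, and was -0.28 without the libraries numbered 3. No member lay below every control library in all 7 cryptorchid libraries, a pattern seen in 0.283% of all genes.

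**Figure D4:**
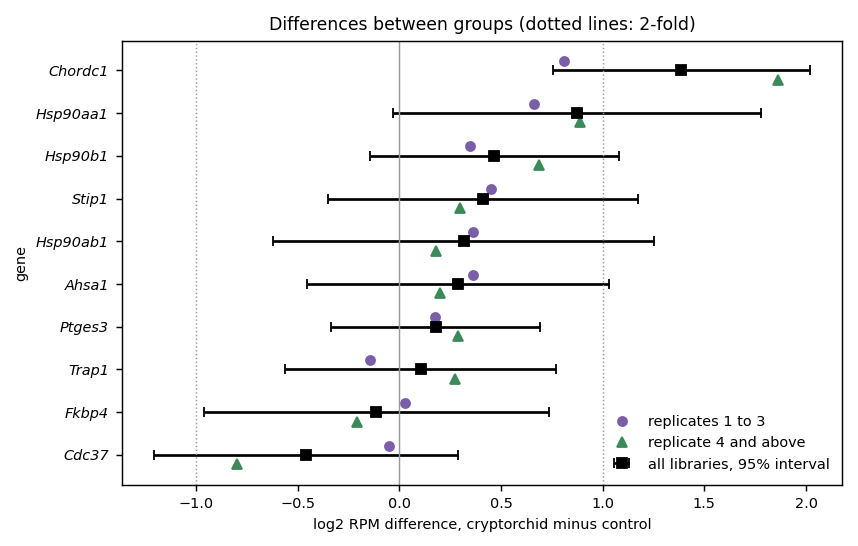
Log2 RPM difference, cryptorchid minus control, for the 10 members, with 95% limma intervals over all 12 libraries (squares) and the difference within replicates 1 to 3 (circles) and within replicates 4 and above (triangles); dotted lines mark 2-fold. The interval of *Chordc1* alone lies above 0, and the within-batch values of *Cdc37* are -0.05 and -0.80.

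With all 12 libraries, most members varied together between libraries of the same group, which rested in part on the libraries numbered 3. Over the 45 pairs of members, Pearson's r of the deviations from the group means had a median of 0.69 across the 12 libraries, and 43 pairs were above 0, with *Ahsa1* and *Fkbp4* highest at 0.95. Without the libraries numbered 3 the median was 0.40 and 30 pairs were above 0. For *Hsp90aa1* and *Hsp90ab1*, r was 0.89 with all libraries and -0.58 without those 2. Without them, *Hsp90aa1* also had -0.79 with *Cdc37*, -0.77 with *Fkbp4* and -0.67 with *Stip1*. It was above 0 only with *Trap1* (0.03) and *Chordc1* (0.48). Pairs of other genes are not given beside these. These values share library depth and batch and are descriptions.

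Beyond the members, 41 further cochaperones and regulators of HSP90 were measured, and all passed the filter. *Fnip1*, a partner of folliculin whose protein slows the HSP90 ATPase, was called higher (3.56% of all genes tested), and none was called lower (2.36% of all genes tested). It had 3.98, 4.51, 4.32, 4.14 and 5.32 log2 RPM in control replicates 1 to 5 and 4.73, 5.58 and 6.06 (lowest, median and highest) in cryptorchid libraries, so the groups overlapped through control replicate 5 and cryptorchid replicate 3. *Fnip1* rose by a log2 difference of 1.08 (standard error 0.308; limma, *P*=0.00261, adjusted *P*=0.244; exact rank sum *P*=0.00505), with 1.06 in batch 1 and 0.96 in batch 2, and the call was lost in either batch alone and without control replicate 1 or cryptorchid replicate 5. *Smyd2*, a lysine methyltransferase that acts on HSP90, had a log2 difference of -0.53 (standard error 0.224; limma, *P*=0.0299, adjusted *P*=0.470; exact rank sum *P*=0.0101), under 2-fold. *Ruvbl2*, an ATPase of the R2TP complex, had -0.68 (limma, *P*=0.0514; exact rank sum *P*=0.0732). *Aipl1*, a cochaperone known from photoreceptors, had -1.85 (limma, *P*=0.0644; exact rank sum *P*=0.106), with -3.67 in batch 1 and -0.13 in batch 2, and no reads in 2 libraries. The median log2 difference of the list was -0.10, below the 0.10 of all genes. Of its 41 means 24 were lower in cryptorchid libraries, while 56.7% of all genes had a higher mean.

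The list of *Hsf1* and 12 chaperone genes of the heat shock response gave 1 call. Over all genes tested, 3.56% were called higher and 2.36% lower. *Hsph1*, the HSP110 nucleotide exchange factor of HSP70, had 6.62, 6.26, 6.29, 6.28 and 6.02 log2 RPM in control replicates 1 to 5 and 6.89, 7.57 and 8.08 (lowest, median and highest) in cryptorchid libraries, without overlap. It rose 2.30-fold, by a log2 difference of 1.20 (standard error 0.246; limma, *P*=0.000126, adjusted *P*=0.129; exact rank sum *P*=0.00253), with 0.86 in batch 1 and 1.53 in batch 2. The mean of 11 of the 13 genes was higher in cryptorchid libraries, against 56.7% of all genes. The median log2 difference was 0.28, against 0.10 over all genes. *Hspa8*, the constitutive HSP70, had 0.63 (adjusted *P*=0.682 in limma) and *Dnaja1*, a J protein, 0.53 (adjusted *P*=0.676 in limma). The inducible HSP70 genes had negative values, -1.02 for *Hspa1a* (adjusted *P*=0.778 in limma) and -0.96 for *Hspa1b* (adjusted *P*=0.684 in limma). These 2 genes are near-identical copies, so reads may be split between them, and in 1 or more libraries *Hspa1a* had 0 reads. Neither was called in the unpaired fit with all libraries. *Hspa1b* was called lower without control replicate 3, and *Hspa1a* when the replicate number was added to the fit as a block. *Hsf1* itself stood at 6.24 ± 0.105 (SD, n=5) and 6.27 ± 0.205 (SD, n=7) log2 RPM, a difference of 0.03. *Serpinh1* had 1.32 (adjusted *P*=0.535 in limma), was covered by as few as 7 reads, and was called when control replicate 2, cryptorchid replicate 3 or cryptorchid replicate 4 was left out. *Hspa8*, *Dnaja1*, *Hspa1a*, *Hspa1b*, *Hsf1* and *Serpinh1* were named after their values were seen.

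Of the 15 chaperones and folding enzymes that work beside *Hsp90b1* in the endoplasmic reticulum, none was called in either direction. With 3.56% of all genes tested called higher and 2.36% lower, lists of this size would hold few calls at that rate. The median log2 difference of the 15 was 0.09, against 0.10 over all genes. *Canx* (calnexin), with the smallest *P*-value of the list, had 6.98, 6.31, 4.79, 6.68 and 6.79 log2 RPM in control replicates 1 to 5 and 5.78, 7.36 and 7.49 (lowest, median and highest) in cryptorchid libraries, a difference of 0.75 (standard error 0.382; limma, *P*=0.0651, adjusted *P*=0.559; exact rank sum *P*=0.106). *Hspa5* (BiP) had 0.30 (adjusted *P*=0.861 in limma). None of 12 mitochondrial partners of *Trap1* was called, against the same shares of all genes. Their median was -0.03, with the smallest *P*-value in *Hspa9* (mortalin), at 0.35 (adjusted *P*=0.805 in limma).

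**Figure D5:**
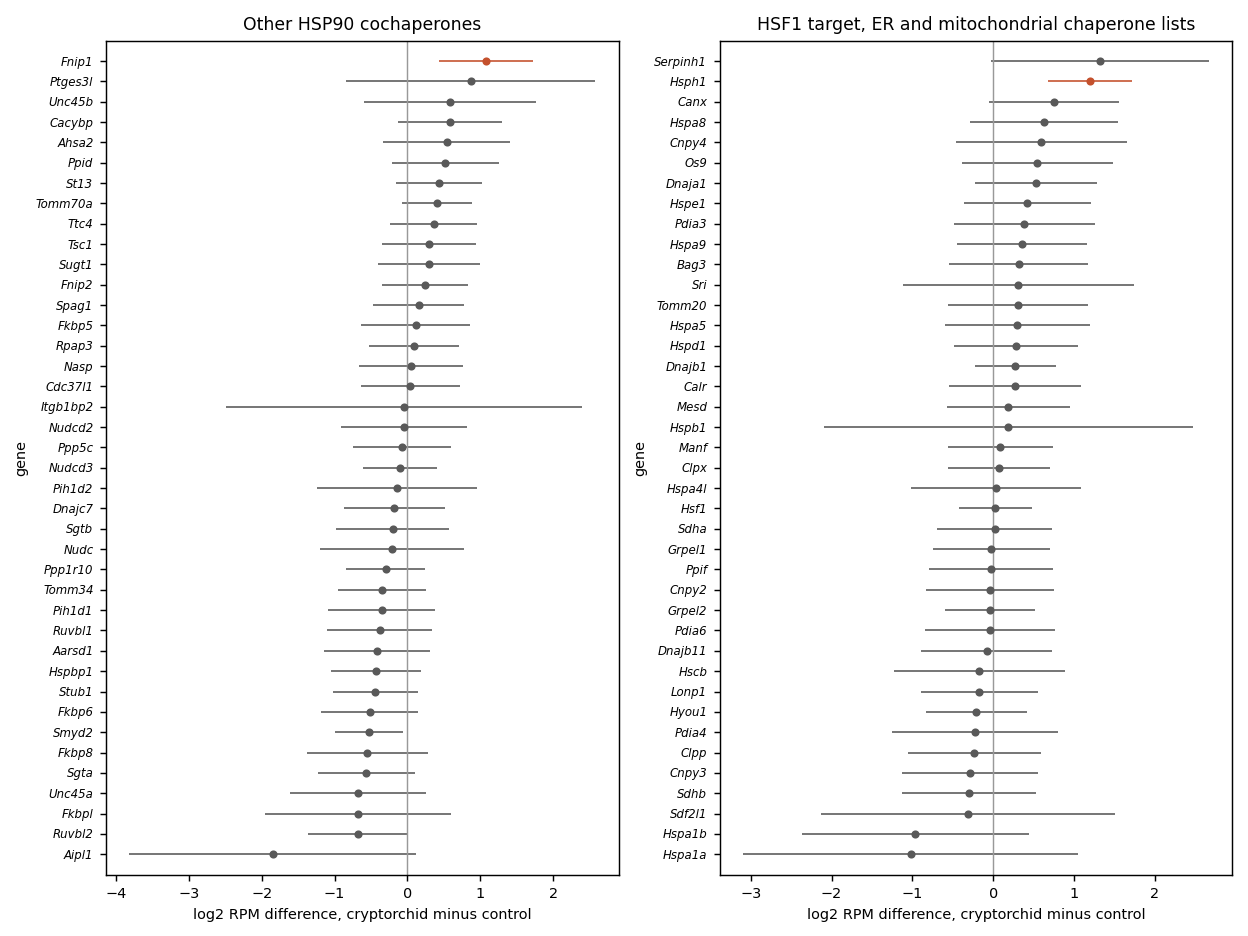
Log2 RPM difference, cryptorchid minus control, with 95% limma intervals, for 40 of the 41 other HSP90 cochaperones (left) and for the HSF1 target, ER and mitochondrial chaperone lists (right, 40 genes); called genes are in red. *Fnip1* at 1.08 and *Hsph1* at 1.20 are the called genes, and most intervals include 0.

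Genes of HSP90 clients were read as a last list, since the RNA level says nothing of the folding of the protein. Of 23 genes 22 passed the filter (*Pgr* did not). Among these, 1 was called lower (2.36% of all genes tested) and 1 higher (3.56% of all genes tested). The median log2 difference was -0.03, against 0.10 over all genes. *Cdk6*, a cell cycle kinase and CDC37 client, had 6.44, 6.42, 6.48, 5.77 and 5.43 log2 RPM in control replicates 1 to 5 and 3.83, 4.61 and 5.26 (lowest, median and highest) in cryptorchid libraries, without overlap. It fell by 1.65 on the log2 scale (standard error 0.317; limma, *P*=6.14e-05, adjusted *P*=0.104; exact rank sum *P*=0.00253), with -1.58 in batch 1 and -1.45 in batch 2. *Lck*, a SRC family kinase, rose by a log2 difference of 1.43 (standard error 0.509; limma, *P*=0.0116, adjusted *P*=0.380; exact rank sum *P*=0.0303), and its groups overlapped. *Nr3c1*, the glucocorticoid receptor, which depends on HSP90 and FKBP proteins, had a log2 difference of 0.70 (adjusted *P*=0.421 in limma), under 2-fold. *Plk1* went the other way, with -0.82 (adjusted *P*=0.487 in limma), also under 2-fold.

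The genes most like each HSP90 gene were read from Pearson's r of log2 RPM over the 12 libraries, among the 13016 genes whose mean RPM had a log2 above 2. They were *Snx16* (0.97), *Mphosph8* (0.97) and *1110059E24Rik* (0.97) for *Hsp90aa1*, and *Mcl1* (0.99), *Cct2* (0.98) and *Gnl3* (0.97) for *Hsp90ab1*. For *Hsp90b1* they were *Enpep* (0.98), *Gm7030* (0.94) and *Gm9732* (0.92), and for *Trap1* *Cdc16* (0.97), *Nxf2* (0.96) and *Gmfb* (0.96). Among members, *Ahsa1* was most like *Hsp90ab1* (0.95), and *Hsp90ab1* was most like *Hsp90aa1* (0.81) and *Trap1* (0.85). For *Chordc1*, looked up after its values were seen, *Hsph1* came first of the 13016 genes (0.95). The points share depth, batch and the groups themselves, so the values are descriptions.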

How the data were processed

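RNA-seq was read in 12 libraries (5 control, 7 cryptorchid), grouped by GEO's labels. The authors trimmed reads with Trim Galore 0.6.6, mapped them to mm10 with HISAT2 2.1.0, used SeqMonk to count reads on protein-coding genes, and deposited the counts as log2 RPM. The study left out RNA-seq datasets with too many duplicates. Whether duplicate reads were removed from the others, the strand and the handling of reads with several matches are not given in the sources used here. In every library 100% of the values came out as whole reads within 0.02, which gave the depth, for counting error only. Replicate pairs differed by 12.8 to 253 times sampling noise.

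The test was limma 3.58.1 (R 4.3.3; lmFit, eBayes with trend, no covariates) over genes whose mean RPM had a log2 above -1. The call rule follows the study's, whose own test was on counts. The low limit is the value the study applied to genes near changed ChIP-seq peaks, used here on the mean RPM of all genes. Exact rank sum tests, ratios and levels were made in Python 3.11.15 and scipy 1.17.1. Scripts were tested on simulated data. Members, lists and tests were chosen with earlier results of these data known. One list gene is not reported here by name. Named were all members, called list genes with the smallest *P*-values (at least 4 of the other cochaperones) and the 3 genes most like each HSP90 gene. Some further list genes, *Nr3c1*, *Plk1* and *Hspa5* among them, were named outside this rule. Alternatives were other scalings, pseudocounts, filters, weights, voom, batch, block, transcript lengths and left-out libraries.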

Additional observations from a re-analysis of the deposited data

Results flagged for a closer look

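Of 30 groups of values (each member and the ratios between members, in control and in cryptorchid libraries), 6 had a library set apart by Dixon's test. Chance gives about 1 in 20 for a single group. The groups share libraries and the ratios reuse the values of members, so the count of 6 cannot be set against that rate. All 6 were libraries numbered 3. *Hsp90aa1* was 9.59 log2 RPM in control replicate 3 against 10.75 to 10.89 in the other controls, and 10.11 in cryptorchid replicate 3 against 11.44 to 11.84. *Hsp90ab1* was 8.71 against 10.37 to 10.78 in control, and 9.02 against 10.43 to 11.15 in cryptorchid libraries. The log2 ratio of *Hsp90b1* to *Hsp90ab1* was 0.47 in cryptorchid replicate 3 against -1.01 to -0.55, and that of *Chordc1* to *Hsp90ab1* was -3.70 in control replicate 3 against -5.99 to -5.34. Why these libraries stood apart was not tested.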

How the results depend on the processing

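The count of called members was 1 under every alternative except in batch 1 alone (0) and without cryptorchid replicate 3 (2, with *Hsp90aa1*), so leaving out libraries gave 1 to 2. No member was called lower under any alternative. Of the other cochaperones, 0 were higher in batch 1 alone and in batch 2 alone, and 0 to 1 with libraries left out. Of those called lower, *Aipl1* made 1 in batch 1 alone, with the batch term, median centring, quantile normalization, voom and the replicate block, batch 2 alone gave 3, and leaving out libraries gave 0 to 1. Of the HSF1 targets 0 were called in batch 1 alone, 2 with log2(RPM + 1), 2 with the replicate block (*Hspa1a* lower), and 1 to 2 with libraries left out. *Trap1* turned to -0.14 in batch 1 alone, -0.049 with the block and -0.017 without both libraries numbered 3, and ran from -0.17 to 0.30 with libraries left out. *Fkbp4* turned to 0.029 in batch 1 alone and ran from -0.46 to 0.12 with libraries left out, *Hsp90ab1* from -0.050 to 0.56 and *Ahsa1* from -0.015 to 0.47. The ratio to *Hsp90ab1* turned to -0.014 for *Hsp90b1* in batch 1 alone and to 0.091 for *Trap1* in batch 2 alone. The cause of these changes was not tested.

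Replicate numbers were not used as pairs, since no source ties them to a mouse and not every same-numbered correlation of deviations was over 0.1 (0.35, 0.36, 0.41, 0.25 and 0.05). Control replicates 1 to 4 were each closest to the cryptorchid library of their own number, a hint from the data, and control replicate 5 was closest to cryptorchid replicate 7. With the replicate block 778 genes were called higher and 900 lower, against 603 and 399. Limma's adjusted *P*-value was under 0.05 for 949 of the 16932 genes, against 2 without the block. Among members it was 0.00485 for *Hsp90aa1*, 0.00974 for *Chordc1*, 0.0406 for *Hsp90b1* and 0.0496 for *Stip1*. Cryptorchid replicates 6 and 7 have no control of their number, so they do not enter the blocked difference. *Hsp90aa1* kept a log2 difference of 0.66 to 0.89 under the alternatives other than single libraries left out, its unadjusted *P*-value running from 2.12e-05 to 0.488. Limma's array weights called 882 genes higher and 703 lower, with 476 adjusted *P*-values under 0.05 and 0.00328 for *Chordc1*. Quantile normalization gave 457 higher and 542 lower genes, median centring 532 and 501, the batch term 580 and 635, and no filter 867 and 413.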
